A study of Mus musculus with 6 samples.

Results

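The genes described here are 35 markers of fibroblasts and genes of the interstitial matrix that fibroblasts build, chosen by symbol from the 24421 gene symbols in the count table. All 35 were found in the table, and all 35 passed the filter on low counts. They were followed in whole prostates of C57BL/6 mice aged 52 weeks, with polyA-selected RNA sequenced from each. Controls were 3 libraries of the p62f/f genotype, in which p62 is floxed and no Cre is present, and which the labels call wild type. Knockouts were 3 libraries with the same floxed p62 plus a Cre recombinase named for FSP1 (p62ffFSP1cre), described in the labels as lacking p62 in the stroma. Both groups therefore carried floxed p62, the gene Sqstm1, and differed in the Cre. FSP1 is the protein encoded by S100a4, so 1 of the 35 genes is the gene for which the Cre is named. Nothing in the labels says that the libraries are of different animals, and p-values here cover the spread between these samples, which may be technical.

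Fibroblasts make the fibrillar collagens, which assemble into the cables of the interstitial matrix, and small proteoglycans such as decorin that bind those cables and set their thickness. Elastic fibres form when elastin is laid on fibrillin microfibrils and crosslinked by lysyl oxidases. Metalloproteinases cut this matrix and TIMP proteins inhibit them. In the prostate the stroma surrounds the glands and holds smooth muscle as well as fibroblasts, and FSP1 is also made by macrophages and other leukocytes, so it does not mark fibroblasts alone.

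None of the 35 genes passed the test between knockout and control. Across all 13762 tested genes, 698 (5.07%) had an adjusted p under 0.05 by edgeR, 57 of them higher (0.414%) and 641 lower (4.66%) in the knockout. Among the 35 genes 0 were called in either direction, and 6 (3 higher, 3 lower) had an unadjusted p under 0.05, where 22.1% of all tested genes did (8.62% higher, 13.5% lower). DESeq2 called 3 of the 35, Lum higher and Col12a1 and Timp2 lower, against 11.8% of all tested genes (3.31% higher, 8.45% lower). The log2 fold changes of knockout over control ran from -0.98 for Col12a1 to 1.24 for Thy1, with 21 positive and 14 negative. Their median was 0.17, and that of all tested genes was 0.03. The smallest adjusted p was 0.0998, for Timp2. Of the 35 intervals at 95%, 8 lay wholly within a 2-fold change in either direction and 32 within a 4-fold change. Changes of more than 2-fold were therefore not excluded for most of these genes. In whole-organ RNA, fewer cells of a type and less RNA per cell cannot be told apart.

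**Figure D1:**
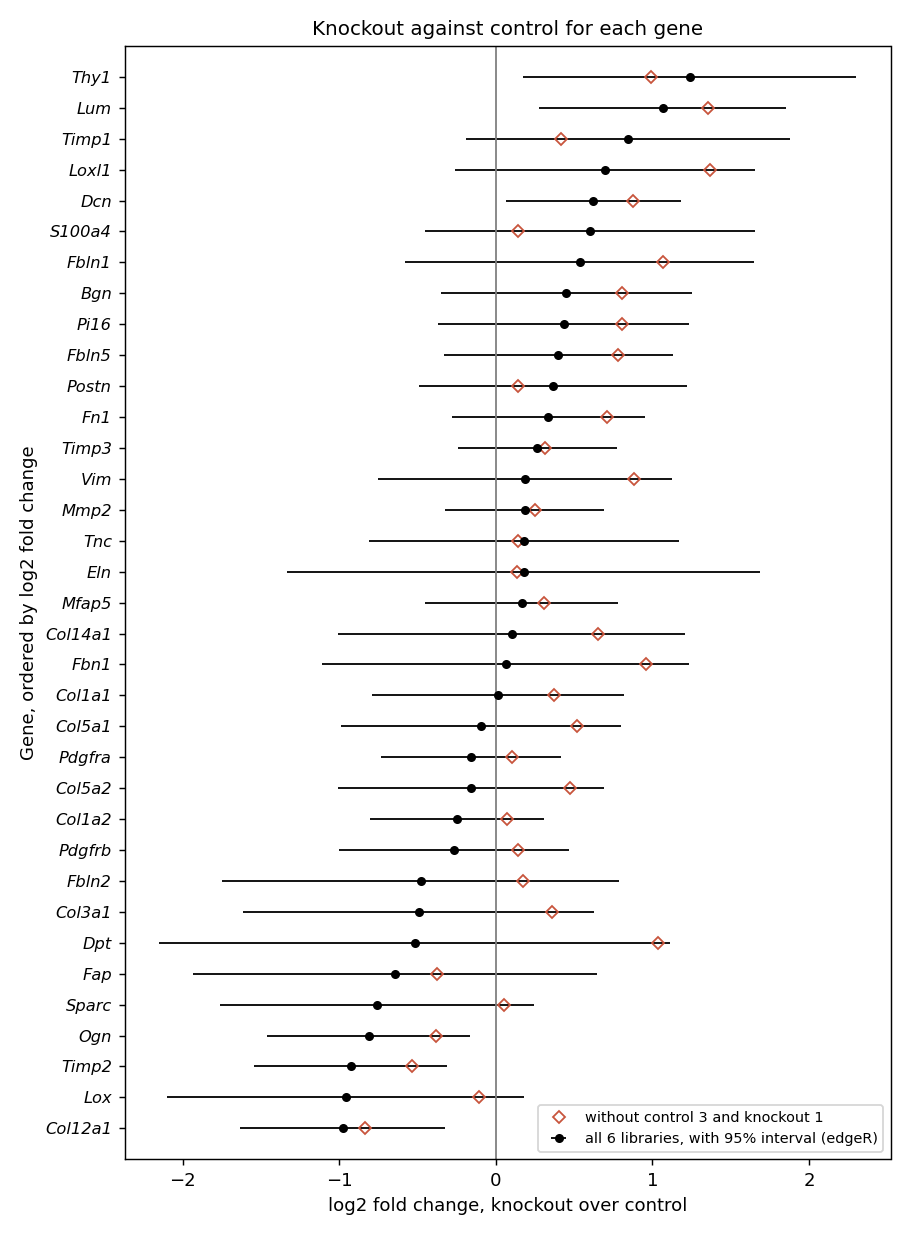
log2 fold change of knockout over control (x axis) for the 35 genes (y axis, in order of the value), with 95% intervals from edgeR over 3 control and 3 knockout libraries as black points and bars, and the estimate without control 3 and knockout 1 as open diamonds. The black points run from -0.98 to 1.24, and the diamonds lie above 0 for 30 of the 35 genes. Control 3 and knockout 1 were left out with their values known, which itself pushes the diamonds up. The diamonds are therefore no evidence of a direction.

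Total counts were 12826463 to 26910053 per library, and each of the 35 genes had at least 12 counts in every library. Values below are CPM, counts scaled by TMM factors to a library of 1e6 counts. Control 3 and knockout 1 stood apart in these genes. Control 3 was the highest of the 6 libraries for 17 of the 35 genes and above the other controls for 27. Knockout 1 was the lowest of the 6 libraries for 16 and below the other knockouts for 25. Sqstm1 itself was not lower in the knockout, at 360.4, 409.0 and 294.6 CPM in controls 1 to 3 and 540.9, 387 and 462 CPM in knockouts 1 to 3 (adjusted p = 0.355, edgeR). Counts over the whole gene in the whole organ do not check a deletion directed to the stroma, so the groups are named as labelled.

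S100a4 was measured at 7.47, 4.02 and 7.38 CPM in controls 1 to 3, and at 16.1, 7.21 and 5.56 CPM in knockouts 1 to 3. Knockout 1 was the highest library, and the other knockouts lay within the range of the controls. The means were 6.29 ± 1.96 and 9.62 ± 5.66 CPM (SD, n = 3 each), and the log2 fold change was 0.60 ± 0.45 (SE; adjusted p = 0.455, edgeR). Its 95% interval ran from 0.731-fold to 3.15-fold of the control level. Without knockout 1 the log2 fold change was the smallest obtained with a library left out, at 0.02. The annotation places another gene, Gm42674, on the same strand over S100a4, and that gene is not in the count table. S100a4 lies on GRCm38 chromosome 3, 90603771 to 90606045, on the plus strand. Per kilobase of exon it ranked 5 of the 35, at a mean of 13.6 CPM per kb. The 250 bases before its RefSeq start (GRCm38.p6, chr3:90603520-90603769, plus strand) are shown because this is the gene for which the Cre is named. Capitals mark a match to TATAAA, which begins 31 bases before the start.
S100a4: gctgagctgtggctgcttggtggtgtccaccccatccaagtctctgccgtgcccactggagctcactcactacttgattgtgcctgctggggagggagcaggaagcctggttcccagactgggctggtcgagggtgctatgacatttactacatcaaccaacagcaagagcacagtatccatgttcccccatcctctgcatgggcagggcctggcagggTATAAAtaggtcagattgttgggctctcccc

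The other identity genes include the intermediate filament vimentin, the growth factor receptors PDGFRα and PDGFRβ, the cell surface proteins FAP and THY1, and the genes Pi16 and Dpt, which mark fibroblasts of outer tissue layers. Thy1 was measured at 11.8, 8.94 and 3.14 CPM in controls 1 to 3 and at 15.0, 24.5 and 17.0 CPM in knockouts 1 to 3. Every knockout exceeded every control, and control 3 was far below the other controls. The log2 fold change of 1.24 ± 0.46 (SE) was the largest of the 35, with an adjusted p of 0.177 (edgeR), and it was 0.86 without control 3. In all, 6 of the 35 genes had groups that did not overlap, 3 higher and 3 lower in the knockout, where 32.4% of all tested genes had no overlap (14.1% higher, 18.3% lower).

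Pdgfra differed little, at 20.9 ± 2.68 and 18.7 ± 4.79 CPM in controls and knockouts (SD, n = 3 each), and its interval ran from 0.602-fold to 1.33-fold. Pdgfrb was at 6.34 ± 1.74 and 5.24 ± 1.18 CPM. Pi16 was at 15.4 ± 2.15 CPM in controls, and in knockouts at 10.8 CPM in knockout 1 and 26.1 and 25.6 CPM in knockout 2 and 3. Fap, which encodes a surface protease of activated fibroblasts, was the lowest of the 35 genes per kilobase, at 0.58 to 2.32 CPM over the 6 libraries. Vim and Dpt were set apart by control 3. Vim was at 49.97, 53.7 and 142.5 CPM in controls 1 to 3 and at 88.9, 81.0 and 110 CPM in knockouts 1 to 3. Dpt, which encodes dermatopontin, was at 13.1, 7.66 and 54.2 CPM in the controls and 9.09, 18.9 and 24.1 CPM in the knockouts. With all libraries the log2 fold change of Dpt was -0.52 ± 0.70 (SE), and without control 3 it was 0.74, so its direction rested on that library.

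**Figure D2:**
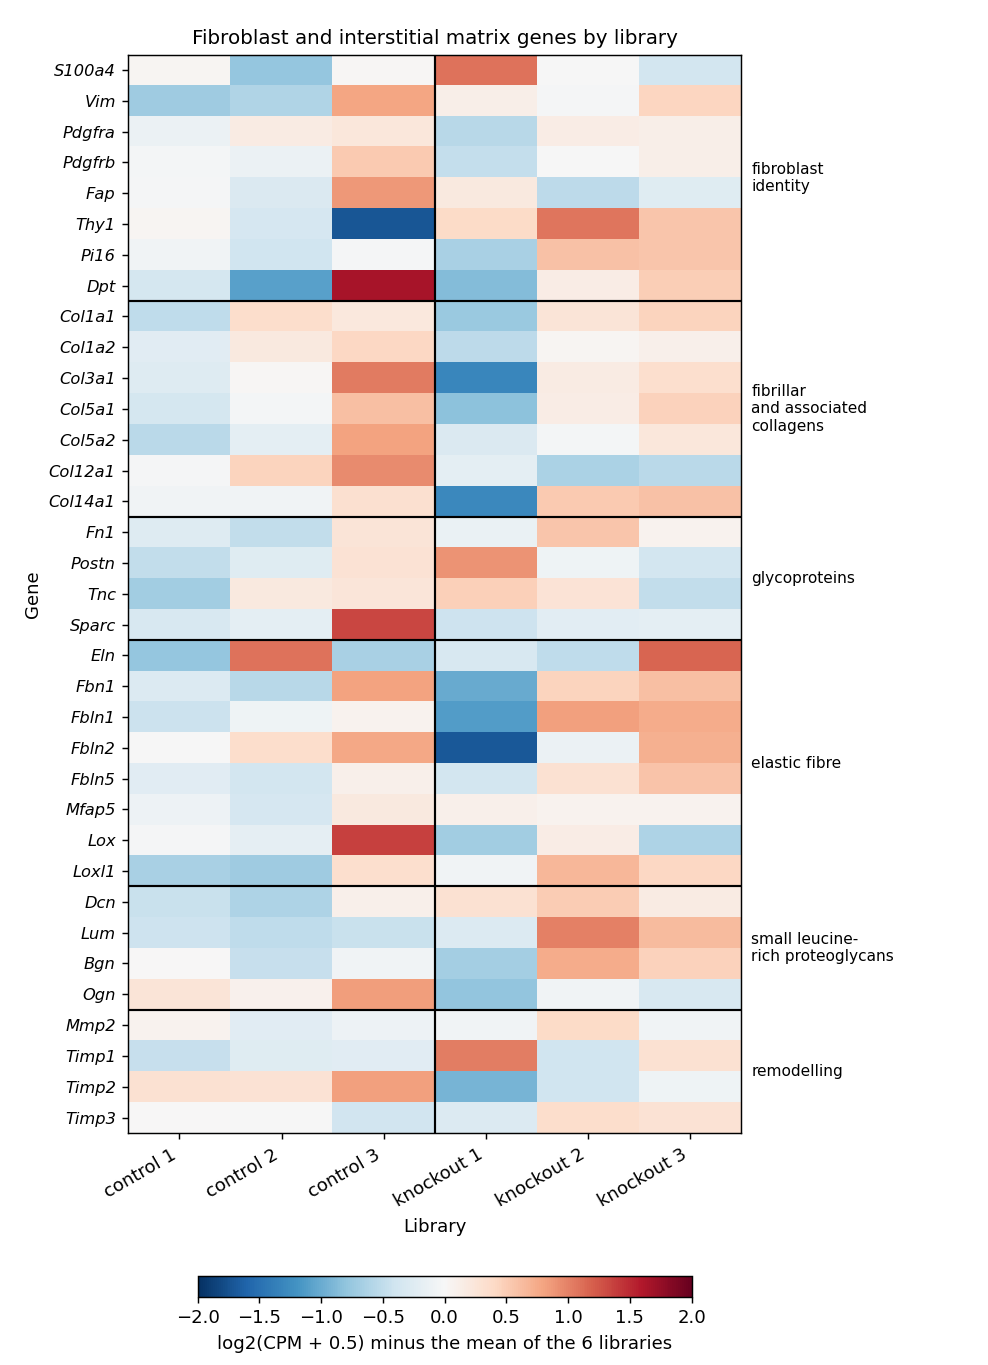
Level of each of the 35 genes (rows, grouped by role) in each library (columns), as log2(CPM + 0.5) minus the mean of the 6 libraries, from blue (low) to red (high). Control 3 is the highest library for 17 genes and knockout 1 the lowest for 16, and in 6 of the 35 genes the controls and knockouts do not overlap, against 32.4% of all tested genes.

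None of the 7 fibrillar and associated collagen genes passed, and 5 of them had negative log2 fold changes. Col1a1 and Col1a2 encode the chains of type I collagen, the main fibre-forming collagen. Col1a1 was at 33.8, 61.9 and 55.8 CPM in controls 1 to 3 and at 28.6, 58.0 and 65.9 CPM in knockouts 1 to 3. The ranges overlapped almost wholly, and the log2 fold change was 0.01 ± 0.35 (SE; adjusted p = 0.985, edgeR), with a 95% interval from 0.577-fold to 1.77-fold. Col1a2 was at 106 ± 22.8 and 89.4 ± 19.8 CPM (SD, n = 3 each). The ratio of Col1a1 to Col1a2 per kilobase was 0.893 ± 0.157 in controls and 1.05 ± 0.21 in knockouts, so the balance of the chains differed by less than the spread between libraries. Col3a1, of type III collagen, was at 91.5, 110 and 225 CPM in the controls and at 43.7, 122 and 138 CPM in the knockouts. Control 3 was the highest library and knockout 1 the lowest, and the 4 others lay between 91.5 and 138 CPM. The chains of type V collagen, which starts and sizes collagen fibrils, had log2 fold changes of -0.09 for Col5a1 and -0.16 for Col5a2.

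Col12a1 and Col14a1 encode collagens that sit on the surface of the fibrils. Col12a1 was at 21.7, 30.1 and 43.0 CPM in controls 1 to 3 and at 19.2, 14.1 and 14.9 CPM in knockouts 1 to 3. The groups did not overlap, although control 1 and knockout 1 lay close together. The log2 fold change was -0.98 ± 0.28 (SE), the lowest of the 35, with an adjusted p of 0.103 in edgeR and 0.0283 in DESeq2. Col14a1 was at 9.03, 9.002 and 12.0 CPM in the controls, and at 3.61 CPM in knockout 1 against 13.8 and 14.6 CPM in knockout 2 and 3. The median log2 fold change of the 7 collagens was -0.16.

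Among the adhesive and matricellular glycoproteins, fibronectin (Fn1) was at 109 ± 30.1 and 138 ± 35.2 CPM, and periostin (Postn) at 27.5 ± 8.07 and 35.5 ± 17.7 CPM (SD, n = 3 each). Postn was highest in knockout 1, at 55.8 CPM, against 27.9 and 22.9 CPM in knockout 2 and 3. Tenascin C (Tnc) was low throughout, at 2.25 to 5.71 CPM. Sparc, which encodes a collagen-binding protein also called osteonectin, was at 92.6, 100.1 and 291 CPM in controls 1 to 3 and at 86.3, 99.0 and 100.7 CPM in knockouts 1 to 3. Apart from control 3, the libraries spanned only 86.3 to 100.7 CPM. The log2 fold change of Sparc was -0.76 ± 0.43 (SE; adjusted p = 0.334, edgeR), and it was -0.014 without control 3 and 0.050 without control 3 and knockout 1.

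**Figure D3:**
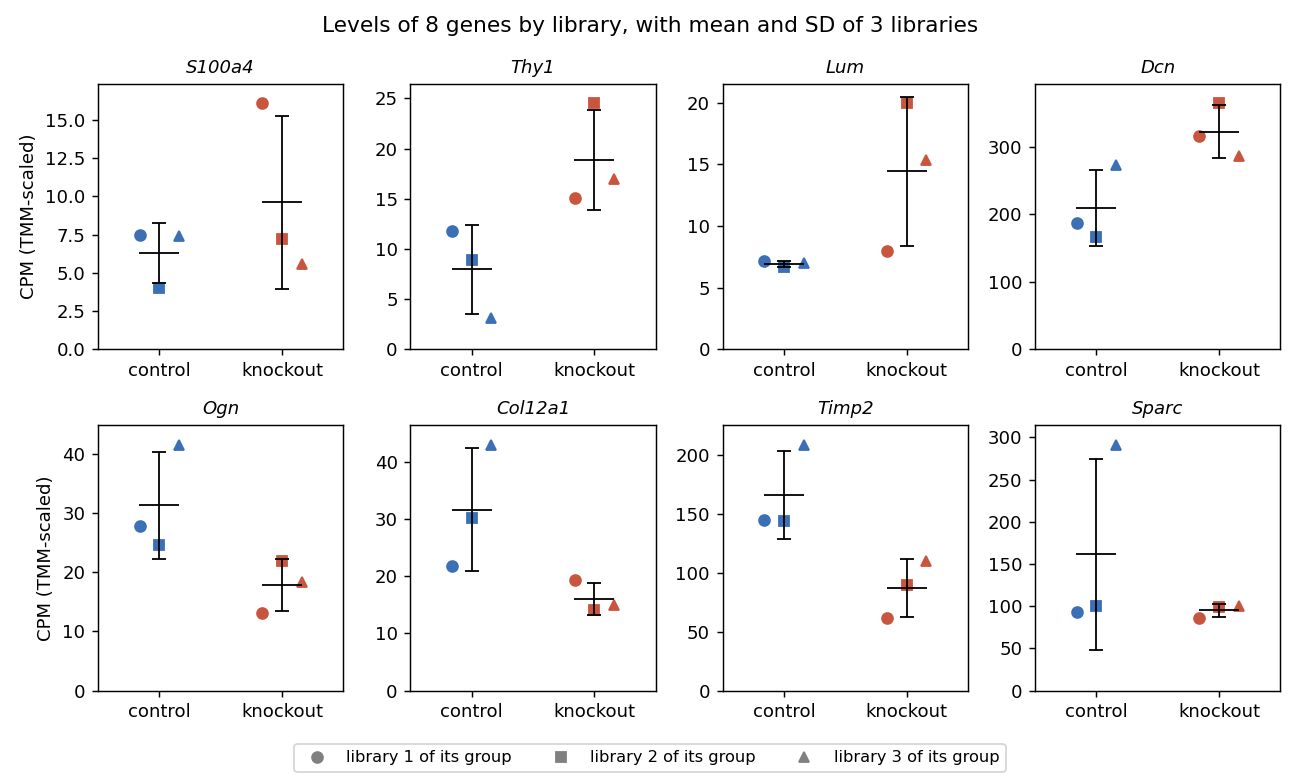
CPM (TMM-scaled, y axes from 0) of 8 genes in control (blue) and knockout (red) libraries, 1 point per library, with the mean as a horizontal line and the SD of 3 libraries as bars. Thy1, Lum and Dcn lie higher and Ogn, Col12a1 and Timp2 lower in the knockout without overlap, S100a4 is set by knockout 1 at 16.1 CPM, and Sparc by control 3 at 291 CPM.

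Small leucine-rich proteoglycans bind collagen fibrils and control their spacing, and none of the 4 measured passed the threshold. In 3 of the 4 the groups did not overlap (2 higher, 1 lower), where 32.4% of all tested genes had no overlap (14.1% higher, 18.3% lower). Dcn (decorin), the most abundant of the 35 genes per kilobase at 45.5 CPM per kb, was at 187.4, 166 and 273 CPM in controls 1 to 3 and at 315, 364 and 287 CPM in knockouts 1 to 3. Its lowest knockout exceeded its highest control by little. The log2 fold change was 0.62 ± 0.24 (SE; adjusted p = 0.191, edgeR). Lum (lumican) was at 7.12, 6.64 and 6.97 CPM in the controls and at 7.97, 19.9 and 15.4 CPM in the knockouts. The controls were nearly equal, knockout 1 lay just above them, and knockout 2 and 3 lay well above. The log2 fold change was 1.07 ± 0.34 (SE), and the adjusted p was 0.132 in edgeR, 0.0360 in DESeq2, and 0.0309 in edgeR without knockout 1, a fit that called 3.20% of all tested genes (0.212% higher, 2.99% lower).

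Dcn and Lum are neighbours on chromosome 10, at 97479609 to 97518143 and 97565128 to 97572703 (plus strand, GRCm38). Bgn (biglycan) was at 44.7 ± 7.54 and 61.0 ± 26.9 CPM, with knockout 1 the lowest library at 31.1 CPM. Ogn (osteoglycin) went the other way, at 27.7, 24.6 and 41.6 CPM in controls 1 to 3 and at 13.2, 21.9 and 18.3 CPM in knockouts 1 to 3. All knockouts lay below all controls, by the least between knockout 2 and control 2. Its log2 fold change was -0.81 ± 0.28 (SE; adjusted p = 0.152, edgeR). Ogn overlaps Cenpp on the opposite strand, and Cenpp had 2 to 26 counts per library against 175 to 608 for Ogn. The 250 bases before the RefSeq start of Ogn (GRCm38.p6, chr13:49607765-49608014, plus strand) are shown because it alone of these proteoglycan genes had a negative log2 fold change. That difference did not pass the threshold. Capitals mark overlapping matches to TATAAA on both strands, which begin 229 and 227 bases before the start.
Ogn: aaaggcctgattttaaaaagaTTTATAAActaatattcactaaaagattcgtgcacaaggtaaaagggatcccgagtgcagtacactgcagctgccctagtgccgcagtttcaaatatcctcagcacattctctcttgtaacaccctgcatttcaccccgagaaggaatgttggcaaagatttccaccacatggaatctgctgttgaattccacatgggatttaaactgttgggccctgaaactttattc

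The 8 elastic fibre genes had 6 positive and 2 negative log2 fold changes, with a median of 0.17. Eln, which encodes elastin, split both groups. It was at 5.81, 22.3 and 6.42 CPM in controls 1 to 3 and at 8.19, 7.09 and 23.6 CPM in knockouts 1 to 3. Control 2 and knockout 3 were about alike and far above the other 4 libraries. Fbn1, the main fibrillin of microfibrils, was at 18.0 ± 9.86 and 18.7 ± 9.41 CPM (SD, n = 3 each), with knockout 1 lowest at 7.97 CPM. Among the fibulins, which link elastin to microfibrils and basement membranes, knockout 1 was also lowest for Fbln1 and Fbln2. Fbln1 was at 10.4, 13.3 and 15.0 CPM in the controls and at 6.24, 25.5 and 24.1 CPM in the knockouts. Fbln2 was at 15.6, 20.2 and 27.2 CPM in the controls and 4.51, 14.4 and 25.9 CPM in the knockouts. The knockouts of Fbln1 spanned more than the whole control range, and those of Fbln2 reached from below it to near its top.

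Fbln5, needed for elastic fibre assembly, was at 7.04 ± 1.28 and 9.25 ± 2.99 CPM. Mfap5, a microfibril protein gene, had the smallest ratio of highest to lowest library of the 35, at 1.5 (4.34 to 6.49 CPM). The crosslinking enzymes differed in sign. Lox was at 7.42, 6.58 and 20.2 CPM in the controls and at 4.43, 8.33 and 4.71 CPM in the knockouts. Its log2 fold change of -0.96 ± 0.49 (SE; adjusted p = 0.293, edgeR) was -0.26 without control 3 and -0.11 without control 3 and knockout 1. Loxl1, which acts on elastin, was at 2.73, 2.62 and 5.95 CPM in the controls and 4.36, 7.59 and 6.28 CPM in the knockouts, with a log2 fold change of 0.70 ± 0.41 (SE; adjusted p = 0.348, edgeR).

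Of the remodelling genes, the gelatinase gene Mmp2 was at 15.8 ± 1.75 and 18.0 ± 3.50 CPM (SD, n = 3 each). The TIMP genes did not share a direction. Timp1 was at 1.95, 2.36 and 2.39 CPM in controls 1 to 3 and at 6.39, 2.07 and 3.68 CPM in knockouts 1 to 3. Knockout 1 was the highest and knockout 2 lay among the controls, with a log2 fold change of 0.84 ± 0.45 (SE; adjusted p = 0.304, edgeR). Timp2 was at 145, 144 and 209 CPM in the controls and at 61.6, 89.7 and 110 CPM in the knockouts. All knockouts lay below all controls, with a log2 fold change of -0.93 ± 0.26 (SE). The adjusted p was 0.0998 in edgeR and 0.0228 in DESeq2. Timp3 was at 87.9 ± 12.8 and 106 ± 23.2 CPM, with a log2 fold change of 0.26 ± 0.22.

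Timp4, the remaining gene of the family and not among the 35, fell in the knockout. It was at 122, 129 and 412 CPM in controls 1 to 3 and at 0.68, 0.21 and 0.57 CPM in knockouts 1 to 3. These are 2495, 2016 and 6024 counts against 9, 5 and 15. The log2 fold change was -8.87 ± 0.75 (SE; adjusted p = 0.00120, edgeR), and it passed in all 14 alternatives. All 3 genes of the ventral-type secretory list (Sbp, Sbpl and Spink1) fell as well. Their summed level was 65400, 49130 and 164600 CPM in controls 1 to 3 and 91.8, 18.1 and 3.03 CPM in knockouts 1 to 3, and its part in the fall of Timp4 was not tested. Timp1, Timp3 and Timp4 overlap Syn1, Syn3 and Syn2 on the opposite strand. The counting's strand setting is not given in the sources used here. Syn2 had 2 to 23 counts per library. Syn1 had 4 to 15, against 35 to 96 for Timp1, and Syn3 had 43 to 160, against at least 1051 for Timp3.

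The promoters of the TIMP genes with the highest and the lowest log2 fold change are shown, Timp1 (GRCm38.p6, chrX:20869916-20870165, plus strand) and Timp4 (chr6:115252206-115252455, minus strand). Each is the 250 bases before the RefSeq start. In Timp1 the capitals mark CCAAT and GGGCGG, each on the opposite strand (ATTGG and CCGCCC), which begin 190 and 8 bases before the start. Timp4 had no match to any of the 5 motifs searched.
Timp1: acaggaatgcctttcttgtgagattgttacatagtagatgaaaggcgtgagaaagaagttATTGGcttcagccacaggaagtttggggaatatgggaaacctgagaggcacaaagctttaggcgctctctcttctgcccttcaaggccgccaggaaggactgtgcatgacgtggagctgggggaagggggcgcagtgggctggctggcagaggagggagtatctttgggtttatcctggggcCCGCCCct
Timp4: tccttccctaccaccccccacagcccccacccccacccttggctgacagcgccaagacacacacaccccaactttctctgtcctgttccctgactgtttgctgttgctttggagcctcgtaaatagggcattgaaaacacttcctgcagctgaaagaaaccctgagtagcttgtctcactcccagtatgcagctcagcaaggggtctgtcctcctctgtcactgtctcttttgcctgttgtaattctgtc

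RefSeq promoters were at hand for 20 of the 35 genes (24 starts). GGGCGG, the GC box, was found in 12 of the 24 windows of 250 bases, where 32.7% of all 32851 windows held it. TATAAA was in 7 of 24 (12.4% of all windows), CCAAT in 6 of 24 (33.8%) and the AP-1 motif TGACTCA in 0 of 24 (4.46%). TGATGNAA, the core of a composite element bound by ATF4 with C/EBP factors, was in 2 of 24 (3.45%), those of Fbln5 and Pi16. Motifs were searched on both strands and counted separately, and a gene with several starts counts for each. A match is a description of the letters, not of binding.

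**Figure D4:**
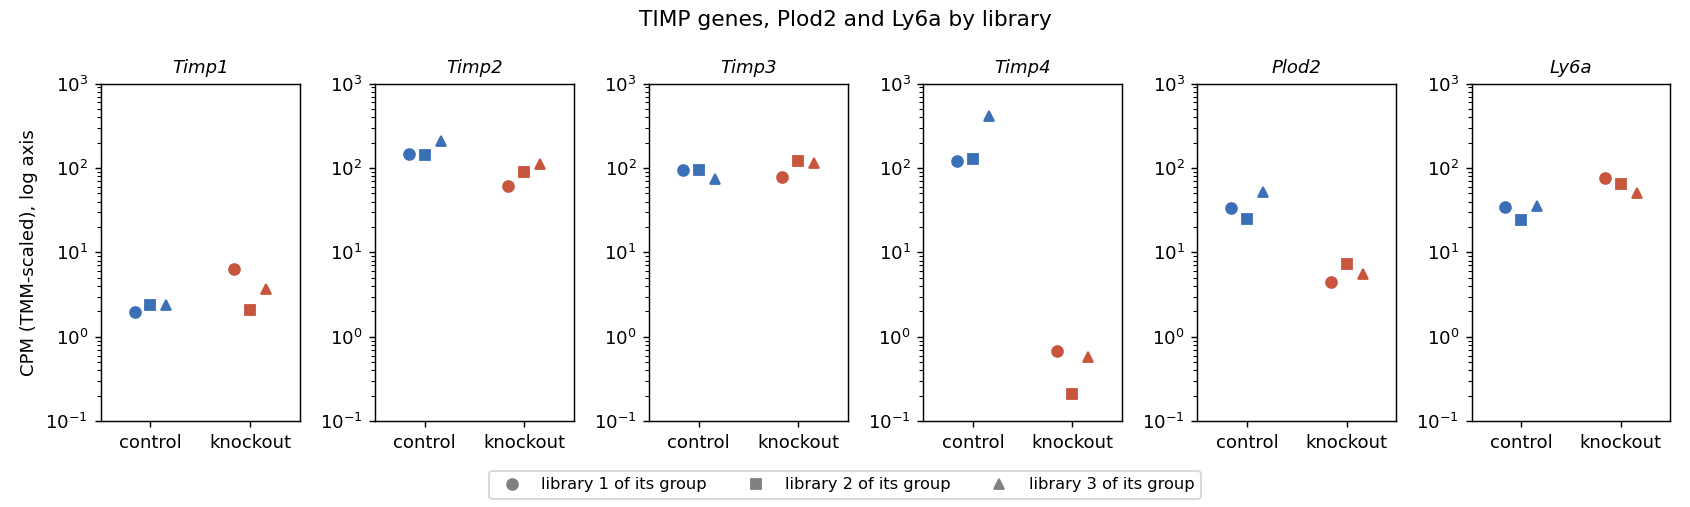
CPM (TMM-scaled, log axis) of the 4 TIMP genes, Plod2 and Ly6a in control (blue) and knockout (red) libraries, 1 point per library. Timp4 lies at 122 to 412 CPM in controls and at 0.21 to 0.68 CPM in knockouts, while Timp1, Timp2 and Timp3 differ by far less.

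Over all 13762 tested genes, edgeR called 0.414% higher and 4.66% lower in the knockout. Of 90 further matrix and fibroblast genes on 7 lists 82 were tested, and 1 rose and 2 fell. The one that rose was Ly6a, which encodes the surface protein SCA-1 of fibroblast and other progenitors and of endothelium, averaging 31.4 ± 6.16 CPM in the controls (SD, n = 3) and 63.6 ± 12.0 CPM in the knockouts (SD, n = 3). Its adjusted p was 0.0425 in edgeR, for a log2 fold change of 1.02 ± 0.22 (SE). Leaving out any 1 library ended the call (edgeR adjusted p of 0.0631 to 0.140). Besides Timp4, the gene that fell was Plod2, a lysyl hydroxylase that prepares collagen for crosslinking. Plod2 was at 33.3, 24.9 and 52.2 CPM in controls 1 to 3 and at 4.51, 7.34 and 5.56 CPM in knockouts 1 to 3. No library overlapped, the log2 fold change was -2.66 ± 0.34 (SE; adjusted p = 0.00546, edgeR), and the call was kept with each library left out. Plod1 and Plod3, of the same enzyme family, had log2 fold changes of 0.04 and -0.03. Plod2, like Timp4, was highest in control 3.

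The 19 genes of collagen processing had a median log2 fold change of -0.03, and beside Plod2 the smallest p-values were those of P4ha1 (prolyl hydroxylase; 0.99) and Bmp1 (procollagen protease; -0.76), values in brackets being log2 fold changes that did not pass. Of the 7 other proteoglycan genes tested none passed, with Fmod (fibromodulin) at 0.85 and Chad (chondroadherin) at -1.17. None of 10 other elastic fibre genes passed, Efemp1 (a fibulin) being at 1.01 and Mfap4 at -0.41. None of 14 other glycoprotein genes passed, Ecm1 being at 0.75 and Matn2 at 0.87. Of 11 other protease and inhibitor genes only Timp4 passed, and Mmp23 and Adamts1 were at 0.99 and -0.66. None of 4 other interstitial collagen genes passed, Col8a2 being at -0.93 and Col5a3 at -1.97. Col5a3 was at 37.7 CPM in control 3 and at 2.63 to 5.79 CPM in the other 5 libraries. Of 17 other fibroblast markers only Ly6a passed, with Cxcl12 at 0.62 and Cd34 at 0.61. Of that list's log2 fold changes 14 were positive, and their median was 0.61, where that of all tested genes was 0.03.

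The defining fibroblast markers (Col1a1, Col1a2, Col3a1, Pdgfra, Dcn and Lum) were present in all libraries, with a summed level of 420 to 711 CPM in controls and 475 to 684 CPM in knockouts. Summed over the 35 genes the level was 1205, 1261 and 2047 CPM in controls 1 to 3 and 1181, 1667 and 1610 CPM in knockouts 1 to 3. The groups overlapped, with knockout 1 the lowest and control 3 the highest. Relative to the mean of the 6 libraries, the median log2 level of the 35 genes was -0.23, -0.20 and 0.29 in the controls and -0.36, 0.15 and 0.28 in the knockouts.

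Markers of other cell types also differed between libraries, and not all in the direction of the 35 genes. The 6 adipocyte markers summed to 35.6, 33.5 and 1202 CPM in controls 1 to 3 and to 17.5, 15.9 and 57.4 CPM in knockouts 1 to 3, and none passed. Plin1, Cidec and Lep were each at 0 in 1 knockout library, and Adipoq was at 108 CPM in control 3 and at most 3.91 CPM elsewhere. Control 3, the library with the high adipocyte level, was also the one with high Vim, Dpt, Sparc, Lox and Col3a1. The part of adipose tissue in these values was not tested. The 8 smooth muscle markers summed to 1166 to 2736 CPM in controls and 2872 to 4273 CPM in knockouts, lowest in control 3, with 0 of 8 past the threshold. All 8 log2 fold changes were positive, with a median of 1.07. In 7 of the 8 the knockouts lay above the controls without overlap, where 14.1% of all tested genes did, and Myh11 overlapped. The 8 macrophage and leukocyte markers, cells that also use S100a4, summed to 96.03 to 214 CPM in controls and 227 to 383 CPM in knockouts, highest in knockout 1, where S100a4 was highest too. Cd74 made up most of that sum, at 338 CPM in knockout 1, whereas Csf1r was lowest in knockout 1, at 12.1 CPM. None of the 8 passed. The 8 epithelial markers summed to 2587 to 3160 CPM in controls and 2746 to 3589 CPM in knockouts. The 6 endothelial markers summed to 42.9 to 53.2 and 61.9 to 73.9 CPM. Of these, Emcn had the largest log2 fold change, 1.52, at 2.67 to 14.4 CPM in controls and 22.9 to 44.9 CPM in knockouts. The 6 endothelial log2 fold changes were positive in 4 and negative in 2. All 6 nerve markers, of which 4 were tested, summed to 9.86 to 13.5 and 12.1 to 22.4 CPM. No tested gene of these lists passed the threshold. All 6 skeletal muscle markers summed to 42.4 to 73.2 and 35.6 to 85.8 CPM. Of the 4 tested, 2 fell, Myh1 and Myh2. All 3 ventral-type secretory genes fell. Whether the content of these cells has a part in the levels of the 35 genes was not tested.

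**Figure D5:**
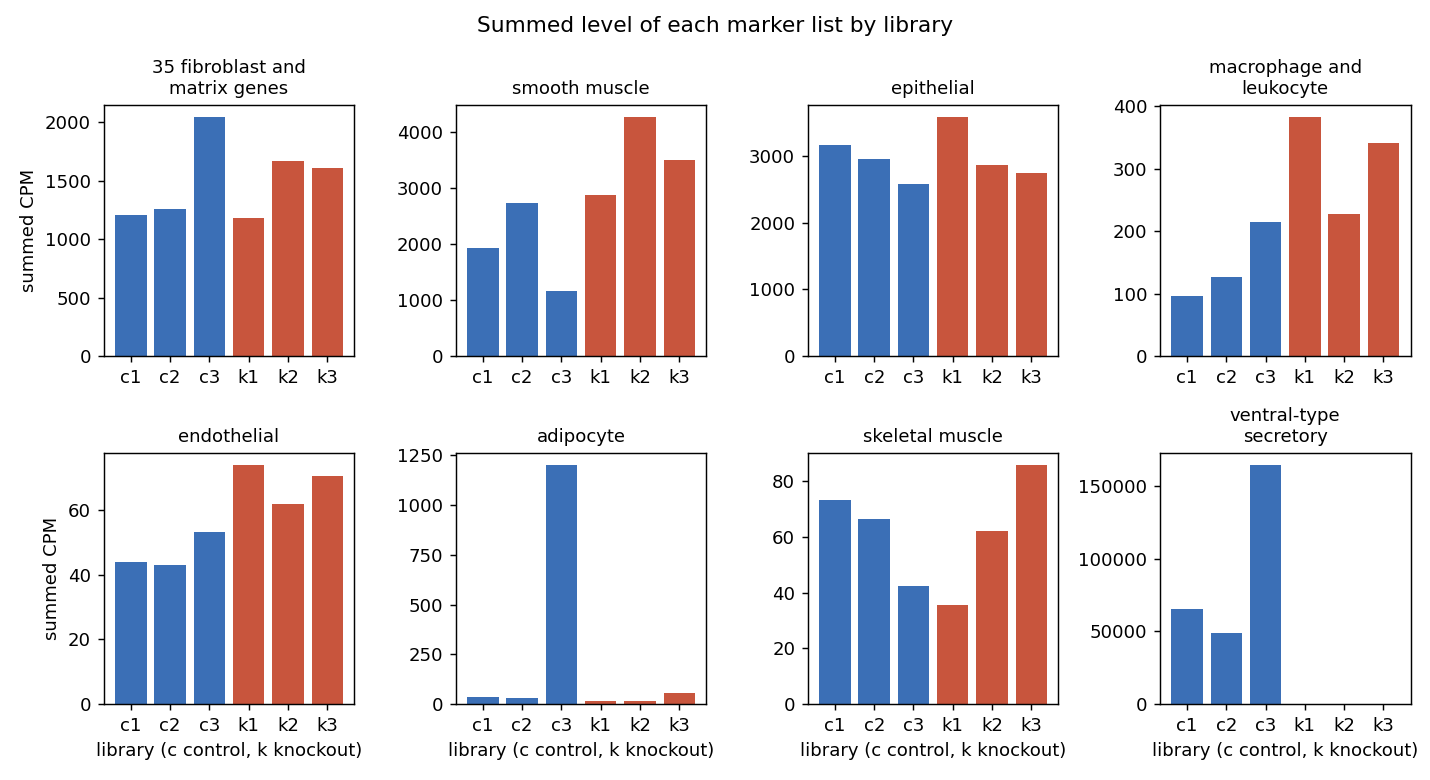
Summed CPM (TMM-scaled, y axes from 0) of the 35 genes and of 7 marker lists in each library, controls c1 to c3 in blue and knockouts k1 to k3 in red. Control 3 stands out with 1202 CPM of adipocyte markers and the lowest smooth muscle level, and the ventral-type secretory genes are at 91.8 CPM or less in the knockouts.

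A further fit left out control 3 and knockout 1, the libraries that stood apart in the 35 genes. With both left out, which leaves 2 libraries a group, 10 of the 35 genes (28.6%) passed, 9 higher and 1 lower in the knockout, where 8.76% of all 14024 tested genes passed (2.62% higher, 6.15% lower). The 9 higher genes were Vim, Thy1, Pi16, Fbn1, Fbln1, Loxl1, Dcn, Lum and Bgn, and the lower one was Col12a1. In the 4 libraries kept, Fbn1 was at 13.7 and 11.1 CPM in controls 1 and 2 and at 22.9 and 25.4 CPM in knockouts 2 and 3. Bgn was at 50.4 and 36.1 CPM in those controls and at 83.4 and 68.6 CPM in those knockouts, and Pi16 at 16.4 and 13.0 CPM and at 26.1 and 25.6 CPM. Lum had a log2 fold change of 1.36 ± 0.23 (SE; adjusted p = 0.0101, edgeR), Fbln1 1.07 ± 0.20 (0.0147) and Loxl1 1.37 ± 0.28 (0.0234). Positive log2 fold changes then numbered 30 of 35, with a median of 0.36 against 0.01 for all tested genes. These 2 libraries were chosen for omission with their values known, and no other pair was left out for comparison. The choice itself pushes the 35 genes towards higher values in the knockout, since it drops the control that was highest for 17 of them and the knockout that was lowest for 16. Neither the count of 9 nor the 30 positive values is therefore evidence of a direction, and the same holds for the p-values of this fit. With all 6 libraries the adjusted p of Lum, Fbln1 and Loxl1 was 0.132, 0.526 and 0.348 (edgeR). With either left out alone at most 1 of the 35 genes passed.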

How the data were processed

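RNA of whole prostates, 3 control and 3 knockout samples, was profiled by polyadenylated RNA sequencing. The labels do not state which prostate lobes were taken, and a difference in lobe content between the groups was not tested. STAR, DESeq2 and mm10 are named, without versions, in the submitters' processing notes. Which program and annotation gave the counts, and with which strand setting, is not given in the sources used here. The deposited values are read counts per gene symbol in whole numbers, not normalized, whose columns were matched to samples by title. Replicate numbers follow sample order and pair nothing.

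Counts were tested with edgeR 4.0.16 (R 4.3.3) by the quasi-likelihood F test on all 6 libraries, after edgeR's expression filter (minimum count 10, 13762 of 24421 genes kept) and TMM scaling, with Benjamini-Hochberg adjustment over all tested genes and a threshold of 0.05. The standard error is the log2 fold change over the root of F. Common dispersion gave a biological coefficient of variation of 32.5%. Pairs of libraries within a group differed by a chi-square per gene of 48.3 to 396, far above sampling noise. On simulated counts with 13830 genes tested, 2-fold changes were found in 18 of 100 genes and 4-fold changes in 88 of 100, and 2 unchanged genes were called.

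The 35 genes and the other lists were chosen with earlier results of these data known, and list genes were named by the called members and up to 2 others with the smallest p. Values in every library were printed for S100a4, for genes whose groups did not overlap, for the extremes and the most abundant. Those of Dpt, Eln, Col1a1, Col3a1, Loxl1, Col14a1, Fbln1 and Fbln2 were added after they were seen, as were single library values of Pi16, Postn, Bgn, Fbn1 and Col5a3 and the fold changes of Plod1 and Plod3. Coordinates and exon lengths are those of GENCODE M21 (GRCm38, equal to mm10) and matched all 35 symbols. Promoters came from RefSeq (GRCm38.p6), and those overlapping an annotated UTR were not printed. By annotation 19 of the 35 genes overlap another gene, 6 of them a protein-coding one. Alternatives were other scalings and filters, DESeq2 1.42.0, limma-voom (limma 3.58.1) and leaving out libraries. Reads carry no molecular identifiers, so precision covers counting and the spread between libraries only.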

Additional observations from a re-analysis of the deposited data

How the results depend on the processing

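No paired analysis was possible because replicate numbers follow only the order of the samples and the labels pair none. The 35 genes and Timp4, Plod2 and Ly6a were refitted under 14 alternatives, and 474 of the 532 values kept both direction and side of the threshold. The count over all genes, 698 in all 6 libraries, was 255 to 551 with a library left out (446 without control 1, 453 without knockout 1, 255 without knockout 2 and 282 without knockout 3), 1618 in DESeq2 and 1229 without control 3 and knockout 1. Of the 35 genes, 0 to 1 were called higher and 0 lower with a library left out, 1 higher and 2 lower in DESeq2 and 9 higher and 1 lower without control 3 and knockout 1. Their median log2 fold change was -0.18 (without knockout 3) to 0.33 (without control 3) with a library left out. Of the other matrix genes 0 to 1 were called higher with a library left out, 0 with library size alone, 8 in DESeq2 and 10 without control 3 and knockout 1, and 2 to 3 lower throughout. DESeq2 called 3.31% of all tested genes higher and 8.45% lower. The fit without control 3 and knockout 1, left out with their values known, called 2.62% higher and 6.15% lower. Scaling by library size alone moved the median of all genes from 0.03 to -0.10, and the signs of Col1a1 (-0.10), Col14a1 (-0.015) and Fbn1 (-0.086) changed. In limma-voom Col1a1 (-0.0012) and Col5a2 (0.0021) changed sign. Without control 3 and knockout 1 it was Pdgfra (0.11), Pdgfrb (0.14), Dpt (1.04), Col1a2 (0.074), Col3a1 (0.36), Col5a1 (0.52), Col5a2 (0.47), Sparc (0.050) and Fbln2 (0.18). In all 16 of the 35 genes changed sign in at least 1 alternative, and none of these changed values passed the threshold (adjusted p of at least 0.0621). With a library left out, log2 fold changes that crossed 0 ranged as follows: Vim -0.071 to 0.85, Col1a1 -0.22 to 0.30, Tnc -0.10 to 0.45, Eln -0.59 to 1.09, Fbn1 -0.21 to 0.60, Dpt -0.95 to 0.74, Col3a1 -0.78 to 0.0066, Col5a1 -0.38 to 0.23, Col5a2 -0.42 to 0.36, Pdgfra -0.28 to 0.039, Postn -0.11 to 0.62 and Col14a1 -0.18 to 0.51. The cause of these shifts was not tested. With 3 libraries a group, changes of 2-fold were seldom called in simulation, whose spread and share of changed genes differ from these data.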
